A study of Mus musculus with 6 samples.

Results

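The genes described here control plasminogen activation and the start and braking of blood clotting. They were chosen by symbol from the deposited count tables and are Plau, Plat, Plaur, Serpine2, F3, Tfpi, Tfpi2, Thbd and Procr, 9 of the 46517 genes in the files and 9 of the 15862 genes with enough reads to be tested. The libraries are poly(A) RNA sequencing of cultured primary renal tubular epithelial cells (RTECs) from wild-type FvB mice, aged 4 to 6 weeks by the sample labels, with no transgene or deletion in either group. Kidneys were digested with collagenase and filtered, no sorting step is described, and the cells were grown in medium with serum and EGF and then kept for 24 h without serum. 3 cultures were left as controls (CTL), and 3 received TGF-β1, a profibrotic cytokine, at 50 ng/ml over 24 h. The comparison asks how TGF-β1 changes transcript levels in these cells.

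Plasminogen activators cut the circulating zymogen plasminogen into plasmin, a protease that degrades fibrin and matrix proteins and can activate latent growth factors. Urokinase (Plau) works mainly on cell surfaces, where its receptor (Plaur) holds it, and tissue plasminogen activator (Plat) works mainly on fibrin, while serpins such as protease nexin-1 (Serpine2) inactivate both. Clotting starts when tissue factor (F3) binds factor VIIa; tissue factor pathway inhibitor (Tfpi) blocks that complex, and thrombomodulin (Thbd) binds thrombin so that it activates protein C, an anticoagulant held on the cell by the endothelial protein C receptor (Procr). Urokinase is a product of kidney tubules, and the balance of plasminogen activators and their inhibitors has long been studied in renal fibrosis.

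Reads on genes summed to 28313080 to 32238171 in CTL and 31862590 to 34183497 in TGF-β1 libraries. Normalized counts below are reads scaled by TMM to the geometric mean of the 6 libraries. The replicate 2 cultures stood apart in both groups. The epithelial genes Epcam and Cdh1 (E-cadherin) were 3.54-fold and 3.43-fold lower in CTL replicate 2 than in the geometric mean of CTL replicates 1 and 3, and Pdgfrb, a pericyte receptor, was 2.73-fold higher. Other fibroblast and pericyte markers were mixed: in CTL, replicate 2 was the highest for Dcn, Rgs5 and Cspg4 but not for Pdgfra, Des and Lum. The Y-linked genes Ddx3y, Eif2s3y, Kdm5d and Uty summed to 4784 and 4497 normalized counts in the replicate 2 cultures and to at most 5.45 in the other 4, although the methods describe male mice. The labelled cell type was checked against its markers: Epcam, Cdh1, Krt8, Krt18, Pax8 and Cdh16 were present in all 6 libraries, while the 9 proximal tubule markers were mixed. Lrp2 had 1980 to 2350 normalized counts in CTL, Aqp1 247 to 500 and Cubn 131 to 151, but the transporters Slc34a1 and Slc22a6 had at most 11 and 8 in any culture, and the collecting duct channel Aqp2 had at most 5. Of the 5 proximal tubule markers tested, Lrp2 and Aqp1 passed lower after TGF-β1, at log2 fold changes of -0.93 and -2.91 (adjusted p = 0.0165 and 0.00919, edgeR). Cubn (0.09, adjusted p = 0.698, edgeR) and Slc5a12 (-1.22, adjusted p = 0.189, edgeR) did not pass. Hnf4a passed lower only with the replicate number in the fit, as described next (-1.52, adjusted p = 0.00448, edgeR). Cultures of the same replicate number deviated from their group means together, so the 9 genes are given without and with the replicate number as a block, and other genes with it where it changes the call. The Y-linked reads set the source of the replicate 2 cultures apart from that of the other 4, so replicate number carries a difference in sex. Nothing else says which cultures came from separate animals. Without the block, p-values measure the spread between these cultures, and with it the spread of the differences within replicate numbers.

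Per kb of exon, Plau had the highest level of the 9 genes and Tfpi2 the lowest. In CTL cultures Plau had 10860 ± 6138 normalized counts per kb (SD, n = 3) and F3 had 4472 ± 2440, and their ranges overlapped. Plat (1295 ± 80.4 per kb) and Serpine2 (1061 ± 321) came next, below the lowest F3 culture and not separated from each other. Plaur (343 ± 84.4), Tfpi (309 ± 107), Thbd (167 ± 57.1) and Procr (132, from 108 to 163) followed, each overlapping its neighbour in this order, and all lay below Serpine2. Tfpi2 had 2.12 ± 1.95 normalized counts per kb. After TGF-β1, Plau (4420 ± 1893 per kb) and F3 (2199 ± 854) stayed at the top, and Tfpi2 (17.3 ± 8.32) stayed at the bottom. No other annotated gene overlaps any of the 9 genes in GENCODE M21, so their reads had no neighbour to be shared with.

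**Figure D1:**
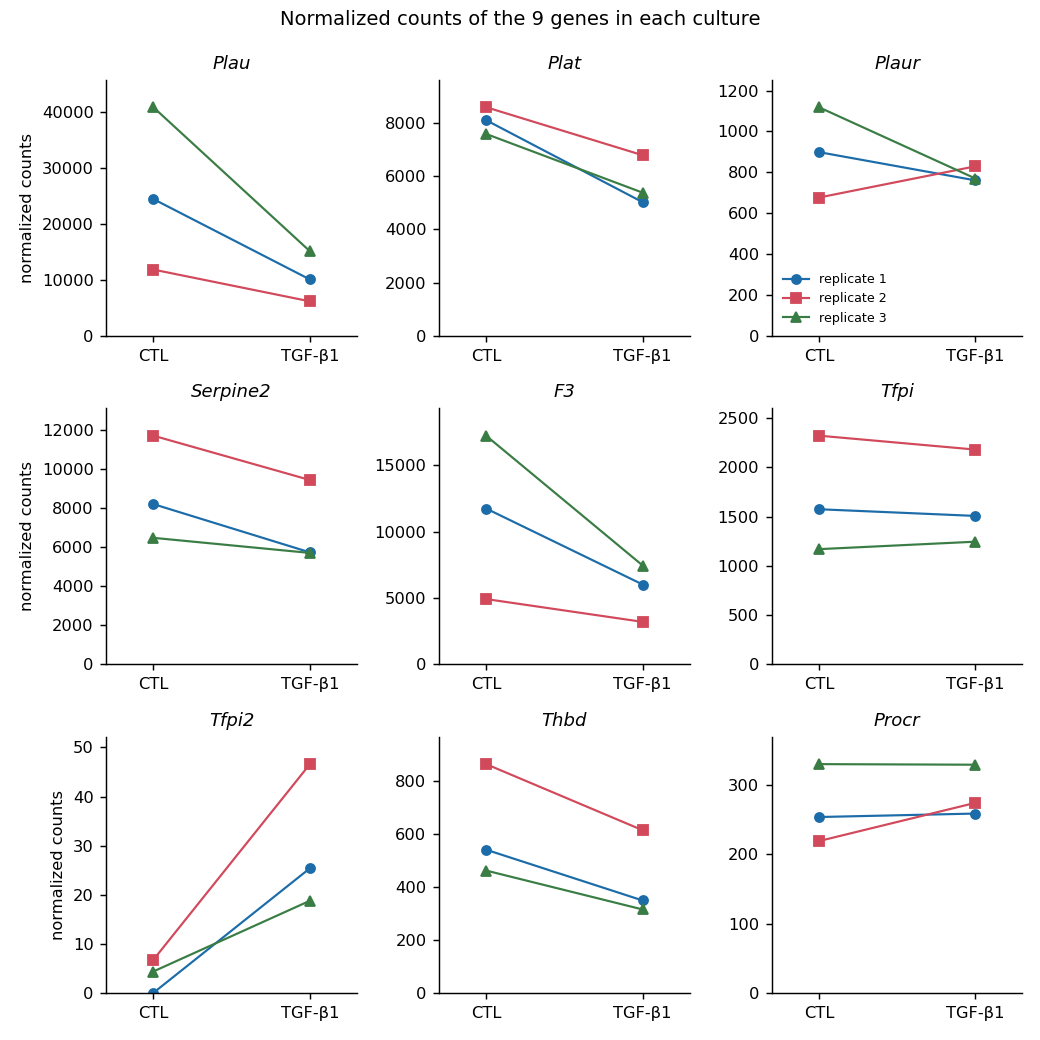
Normalized counts (vertical axes, each from 0) of the 9 genes in CTL and TGF-β1 cultures. Each line joins the cultures of 1 replicate number. Plau, F3, Plat, Serpine2 and Thbd slope down in all 3 pairs, Tfpi2 slopes up in all 3, and Plaur, Tfpi and Procr cross or stay level.

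RefSeq start-site windows of 300 bases on GRCm38.p6 (250 before and 50 after the start) were given for 6 of the 9 genes. The letters TGANTCA, with N as any base, read the same on both strands and are a loose form of the AP-1 consensus TGA(C/G)TCA. They occurred in a window of 4 of these 6, against 8.97% of the 27025 genes with a window and 7.81% of all windows. The Tfpi2 match and the first F3 match printed below are TGAATCA, which the stricter consensus leaves out. AP-1 is a family of Fos and Jun factors that acts with Smads on several TGF-β1 targets. Whether it binds these letters in these cells was not tested, and the 4 genes did not change alike. The stretches that hold these letters are shown 5′ to 3′ on the gene's strand, with the matches in capitals, since they are what the promoters of the F3, Tfpi2, Plaur and Procr genes share.
F3 (chr3:121723365-121723434, plus strand): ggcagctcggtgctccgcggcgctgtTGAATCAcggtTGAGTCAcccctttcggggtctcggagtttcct
Tfpi2 (chr6:3968415-3968484, minus strand): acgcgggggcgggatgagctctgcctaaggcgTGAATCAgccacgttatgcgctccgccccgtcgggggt
Plaur (chr7:24462382-24462451, plus strand): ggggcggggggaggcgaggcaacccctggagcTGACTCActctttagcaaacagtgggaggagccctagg
Procr (chr2:155751031-155751100, plus strand): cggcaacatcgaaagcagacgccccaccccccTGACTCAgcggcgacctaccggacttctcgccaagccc
The matches begin 146 and 135 bases before the start site in F3, 77 in Tfpi2, 69 in Plaur and 154 in Procr. Tfpi2 has 3 listed start sites, and only the window of the one furthest into the gene holds a match; gene-level counts do not show which start is used. Of the other letters searched on both strands, GGGCGG (the GC box) was in windows of 5 of the 6 genes against 38.2% of all genes, TATAAA in 2 of 6 against 15.7%, and CAGACA (the CAGA box that Smads bind) in 1 of 6 against 23.6%. The far end of the F3 stretch overlaps Gm43823, an unclassified transcript annotated on the other strand.

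Among the plasminogen activation genes, both activators and Serpine2 fell with TGF-β1 in the fit with the block, Plau 2.33-fold and Plat 1.42-fold, and Plaur passed neither fit. Plau (chromosome 14 of GRCm38, 20836660 to 20843385) had 24439, 11854 and 40827 normalized counts in CTL replicates 1, 2 and 3 and 10084, 6181 and 15120 in the TGF-β1 cultures of the same numbers. The groups overlap, because CTL replicate 2 lies below TGF-β1 replicate 3, but each treated culture lies well below the control of its own number. The log2 fold change was -1.30 (standard error, SE, 0.51, adjusted p = 0.165, edgeR quasi-likelihood test) without the block and -1.22 (SE 0.09, adjusted p = 0.000127, edgeR) with it, a 2.33-fold fall. Within pairs the log2 ratios were -1.28, -0.94 and -1.43. Without the block, the log2 fold change was -0.79 when CTL replicate 3 was left out. In bulk RNA of this kind, fewer cells of a type and less RNA per cell cannot be told apart.

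Plat (chromosome 8, 22757727 to 22782844) had 8093, 8579 and 7576 normalized counts in CTL and 5016, 6777 and 5373 after TGF-β1. All TGF-β1 cultures lay below all CTL cultures, and the controls were within a narrow range. Plat fell by 0.50 on the log2 scale (SE 0.12, adjusted p = 0.0487, edgeR), 1.41-fold, and was the only gene of the 9 past the threshold of 0.05 without the block. The adjusted p-value ran from 0.0799 to 0.164 when any culture but TGF-β1 replicate 2 was left out, and was 0.0146 without that one (edgeR). With the block the log2 fold change was -0.51 (SE 0.07, adjusted p = 0.000897, edgeR).

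Plaur (chromosome 7, 24462484 to 24475968), the urokinase receptor, had 899, 677 and 1119 normalized counts in CTL and 761, 830 and 770 after TGF-β1. It was lower in pairs 1 and 3 and higher in pair 2, and the treated cultures all lay inside the range of the controls. Its log2 fold change was -0.19 (SE 0.18, adjusted p = 0.536, edgeR), and -0.17 with the block (adjusted p = 0.447, edgeR). With the block and without both replicate 2 cultures, a setting chosen after seeing the data, it was -0.39 (adjusted p = 0.00557, edgeR). Serpine2 (chromosome 1, 79794197 to 79861180), the serpin that inhibits thrombin and both activators, had 8200, 11700 and 6475 normalized counts in CTL and 5730, 9431 and 5702 after TGF-β1. The groups overlap because both replicate 2 cultures are the highest of their group, and each treated culture is below its own control. Its log2 fold change was -0.34 without the block (SE 0.29, adjusted p = 0.496, edgeR) and -0.34 with it (SE 0.06, adjusted p = 0.00518, edgeR). With no block, it ran from -0.63 without TGF-β1 replicate 2 to -0.08 without CTL replicate 2.

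Among the clotting genes, F3 fell with the block and its inhibitor Tfpi moved little. F3 (chromosome 3, 121723537 to 121735048), the cell-surface trigger of clotting, had 11744, 4924 and 17230 normalized counts in CTL and 6019, 3206 and 7450 after TGF-β1. CTL replicate 2 again lies among the treated cultures. The log2 fold change was -1.02 (SE 0.51, adjusted p = 0.248, edgeR), and with the block -0.94 (SE 0.11, adjusted p = 0.00138, edgeR), a 1.91-fold fall, with pair ratios of -0.96, -0.62 and -1.21. Leaving out CTL replicate 3 without the block gave -0.58. The promoter stretch with a pair of TGANTCA matches printed above belongs to this gene.

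Tfpi (chromosome 2, 84432855 to 84476775) had 1575, 2322 and 1170 normalized counts in CTL and 1507, 2180 and 1246 after TGF-β1. Each treated culture lay next to the control of its own number. Its log2 fold change was -0.04 (SE 0.31, adjusted p = 0.951, edgeR), and -0.02 with the block (SE 0.05, adjusted p = 0.757, edgeR). Tfpi2 (chromosome 6, 3962595 to 3988919), a related Kunitz-type inhibitor of plasmin and other matrix-degrading proteases, had 0, 7 and 4 reads in CTL and 25, 45 and 20 reads after TGF-β1. All treated cultures lay above all controls, though at a few reads per library. The log2 fold change was 2.99 (SE 0.74, adjusted p = 0.0526, edgeR), just short of the threshold, and 3.02 with the block (SE 0.49, adjusted p = 0.00235, edgeR). DESeq2 gave 3.04 (adjusted p = 0.00535). Tfpi2 passed the filter on low counts only through the TGF-β1 libraries: 0 of 3 CTL cultures and 3 of 3 TGF-β1 cultures reached the 0.313 CPM (reads scaled to a library of equal size) that the filter asks for, and a gene admitted that way had to differ.

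Of the genes that serve protein C activation on the cell surface, Thbd fell with the block and Procr passed neither fit. Thbd (chromosome 2, 148404466 to 148408188, a single exon), the thrombin receptor that starts protein C activation, had 540, 862 and 461 normalized counts in CTL and 348, 613 and 315 after TGF-β1. The groups overlap through replicate 2, the highest culture in each. The log2 fold change was -0.55 (SE 0.34, adjusted p = 0.351, edgeR), and with the block -0.56 (SE 0.07, adjusted p = 0.000648, edgeR), a 1.47-fold fall that was nearly even over the pairs, at -0.63, -0.49 and -0.55. With no block, leaving out CTL replicate 2 gave -0.24, and leaving out TGF-β1 replicate 2 gave -0.91. Procr (chromosome 2, 155751117 to 155755471), which binds protein C, had 254, 219 and 330 normalized counts in CTL and 259, 274 and 330 after TGF-β1. Its log2 fold change was 0.10 (SE 0.18, adjusted p = 0.748, edgeR) and 0.11 with the block (SE 0.10, adjusted p = 0.424, edgeR).

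**Figure D2:**
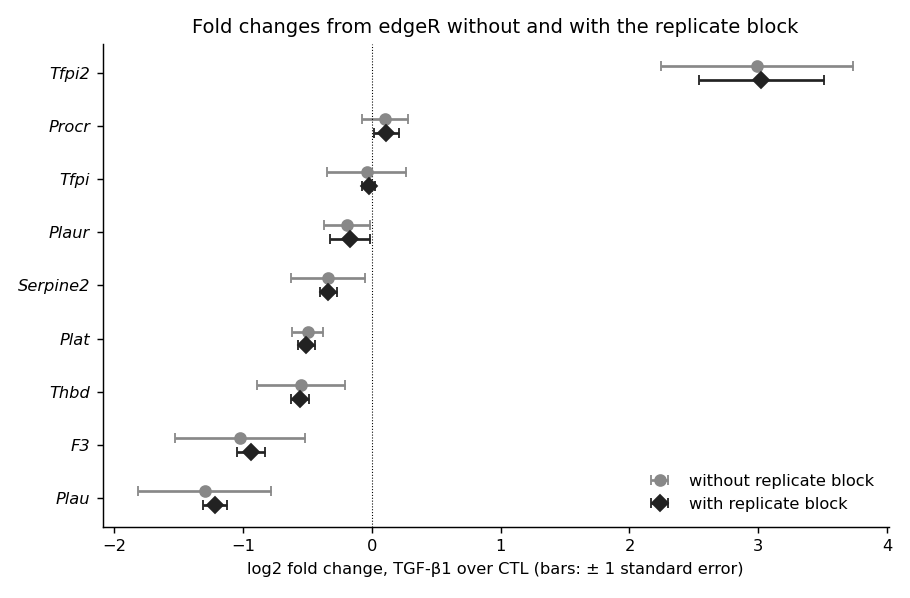
Log2 fold change of TGF-β1 over CTL for each of the 9 genes from edgeR, without (grey circles) and with (black diamonds) the replicate number as a block; bars are ± 1 standard error. The estimates barely move, while the standard error of Plau goes from 0.51 to 0.09 and that of F3 from 0.51 to 0.11.

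Without the block, 1 of the 9 genes passed lower and 0 passed higher, where 6.69% of all tested genes passed lower, 5.00% higher and 11.7% either way. 3 of the 9 (Plat, Tfpi2 and Plau) had an unadjusted p-value under 0.05 in edgeR, as did 28.6% of all tested genes, and DESeq2 passed Plat lower and Tfpi2 higher, where it passed 9.59% of all genes lower and 7.57% higher. With the block, Plau, Plat, F3, Thbd and Serpine2 passed lower and Tfpi2 passed higher, where 19.1% of all genes passed lower, 15.1% higher and 34.2% either way. The groups did not overlap for 2 of the 9 genes, Plat lower and Tfpi2 higher, where this held for 18.0% and 17.2% of all genes, 35.1% in all. All 3 pairs moved the same way in 6 of the 9 genes, 5 lower and 1 higher, which is near the 63.0% of all tested genes that did so, 32.6% lower and 30.4% higher. The 1 gene higher in these counts is Tfpi2. It reached the filter only in TGF-β1 libraries, so its place in them is a description. The median log2 fold change of the 9 genes was -0.34, beside -0.003 over all tested genes. Scaling by library size only, which shifted the median of all genes to -0.077, left each of the 9 in the direction given above.

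The level of several of these genes followed the replicate number more than the treatment. Plau and F3 were lowest in replicate 2 of both groups, as were 24.9% of all tested genes. Plau was 2.66-fold lower in CTL replicate 2 than in the geometric mean of CTL replicates 1 and 3, and 2.00-fold lower in the TGF-β1 group; F3 was 2.89-fold and 2.09-fold lower. Serpine2, Tfpi, Thbd, Plat and Tfpi2 were highest in replicate 2 of both groups, as were 24.9% of all tested genes, by 1.61-fold and 1.65-fold for Serpine2, 1.71-fold and 1.59-fold for Tfpi and 1.73-fold and 1.85-fold for Thbd. 4 of the 6 tubule epithelial markers, Epcam, Cdh1, Krt8 and Krt18, had the order of Plau and F3 over the replicate numbers in both groups: Epcam had 5529, 2004 and 9116 normalized counts in CTL replicates 1, 2 and 3 and 5161, 1694 and 8379 after TGF-β1. The 6 tubule epithelial markers summed to 58861, 30384 and 80832 in CTL and 53688, 26577 and 66767 after TGF-β1, an order set by those 4, since in CTL replicate 2 was the highest for Pax8 and replicate 3 the lowest for Cdh16. Cdh16 and Pax8 passed lower after TGF-β1, at log2 fold changes of -1.50 and -0.77 (adjusted p = 0.00922 and 0.00436, edgeR). With the block Epcam (-0.15, adjusted p = 0.0376, edgeR) and Cdh1 (-0.18, adjusted p = 0.0195, edgeR) did too. Krt8 and Krt18 passed neither fit, and with the block their log2 fold changes were 0.20 and 0.23 (adjusted p = 0.353 and 0.22, edgeR). The 7 fibroblast and pericyte markers summed to 6746 to 13796 in CTL and 5329 to 10112 after TGF-β1, with replicate 2 the highest in both groups, and of the 6 tested Des passed lower. With the block Pdgfrb and Dcn passed lower too and Cspg4 passed higher (1.05, adjusted p = 1.9e-05, edgeR). In CTL, replicate 2 was not the highest for Pdgfra, Des and Lum, and Lum had 0 in CTL replicates 1 and 2. The 4 mesothelial markers summed to 4810, 2771 and 7217 in CTL and 3268, 1729 and 4604 after TGF-β1, also the order of Plau and F3 and also lower in every pair. Most of that sum was Krt19, which tubule epithelium expresses too, while Lrrn4 had at most 3 normalized counts and Msln and Upk3b passed lower, at log2 fold changes of -1.34 and -2.20 (adjusted p = 0.0131 and 0.0122, edgeR). The part of these markers in the levels was not tested. Without both replicate 2 cultures and with no block, Plau, F3, Thbd and Plat passed lower and Tfpi2 higher, at log2 fold changes of -1.37, -1.10, -0.60, -0.59 and 3.34 (adjusted p = 0.0452, 0.0293, 0.0258, 0.00477 and 0.0416, edgeR), where 8.09% of all genes passed lower, 6.79% higher and 14.9% either way.

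**Figure D3:**
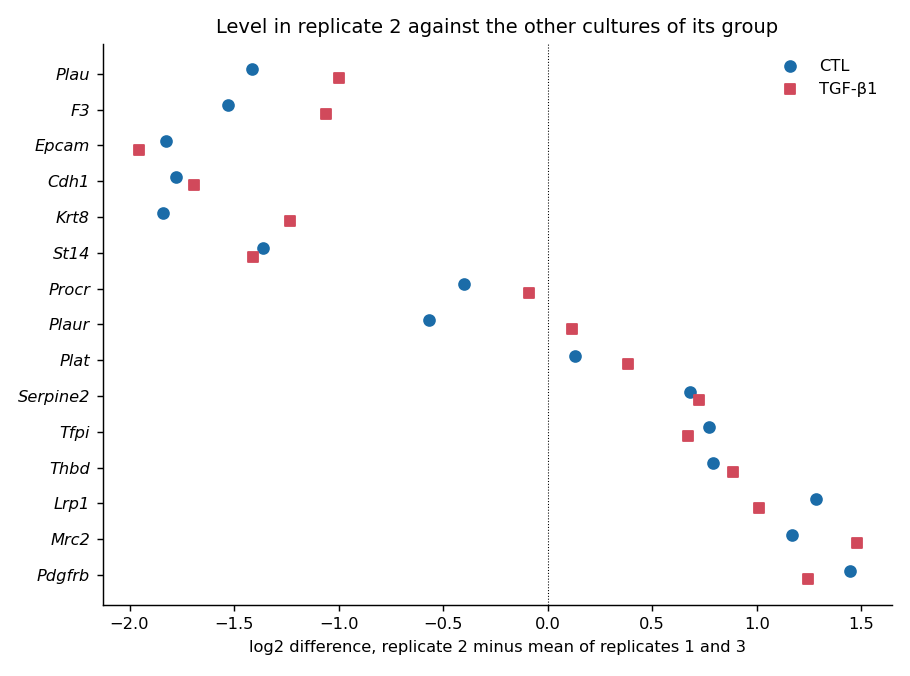
Log2 difference between replicate 2 and the mean of replicates 1 and 3 in the CTL (circles) and TGF-β1 (squares) groups, for 8 of the 9 genes (Tfpi2, with few reads, is left out) and for selected markers and pathway genes. Plau and F3 lie on the left with Epcam, Cdh1, Krt8 and St14, and Serpine2, Tfpi and Thbd lie on the right with Lrp1, Mrc2 and Pdgfrb, in both groups. Markers not shown were mixed: in CTL, replicate 2 was the highest for the epithelial marker Pax8 but not for Pdgfra, Des and Lum.

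Several of the 9 genes are known from endothelial cells, so markers of other cell types were summed. The 8 endothelial markers summed to 86.9, 156 and 107 normalized counts in CTL replicates 1, 2 and 3 and to 105, 147 and 90.1 after TGF-β1. Replicate 2 was the highest in both groups, as for Thbd, Tfpi and Serpine2. Of the 3 that could be tested, 0 passed, without or with the block. The defining genes Pecam1 and Cdh5 had at most 17 normalized counts in any culture, and Cdh5 had 0 in CTL replicate 1. The lowest cultures of Plat, Tfpi, Thbd and Procr had 5016, 1170, 315 and 219. The part of endothelial cells in these levels was not tested. The 7 leukocyte markers summed to 210 to 296 in CTL and 135 to 258 after TGF-β1, and of the 5 tested, Csf1r passed lower.

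Ratios within a culture do not depend on library scaling and compare genes per kb of exon. Plau exceeded Plat by a log2 ratio of 2.99, 1.87 and 3.83 in CTL replicates 1, 2 and 3 and by 2.41, 1.27 and 2.89 after TGF-β1. The pair differences were -0.59, -0.60 and -0.94, which is less than the spread between replicate numbers (two-sided exact permutation test on the unpaired groups, p = 0.4). The log2 ratio of Plaur to Plau was -4.84 ± 0.53 in CTL and -3.78 ± 0.70 with treatment (SD over 3 cultures), with pair differences of 1.04, 1.23 and 0.89 (exact permutation p = 0.2). Serpine2 to Plau went from -3.22 ± 1.33 to -2.35 ± 1.04, with pair differences of 0.76, 0.63 and 1.25 (exact permutation p = 0.4). Serpine2 and Plat stayed close, at -0.33 ± 0.34 and -0.16 ± 0.20 (exact permutation p = 0.4).

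Tfpi to F3, inhibitor to target, had log2 ratios of -4.01, -2.20 and -4.99 in CTL and -3.11, -1.67 and -3.69 after TGF-β1. It was higher after TGF-β1 in every pair, by 0.90, 0.53 and 1.30, while the groups overlapped (exact permutation p = 0.4). Thbd to Procr went from 0.31 ± 0.75 to -0.37 ± 0.62, with pair differences of -0.66, -0.82 and -0.55 (exact permutation p = 0.4). Of the 7 ratios, Tfpi2 to Tfpi was the one whose groups did not overlap, with pair differences of 2.80 and 1.88 in replicates 2 and 3; replicate 1 has no Tfpi2 read in CTL, and Tfpi2 reached the filter only in TGF-β1 libraries, so this ratio is a description. Its exact permutation p of 0.1 is the smallest that 3 cultures against 3 allow, and all 7 ratios had a Benjamini-Hochberg adjusted p of 0.4.

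**Figure D4:**
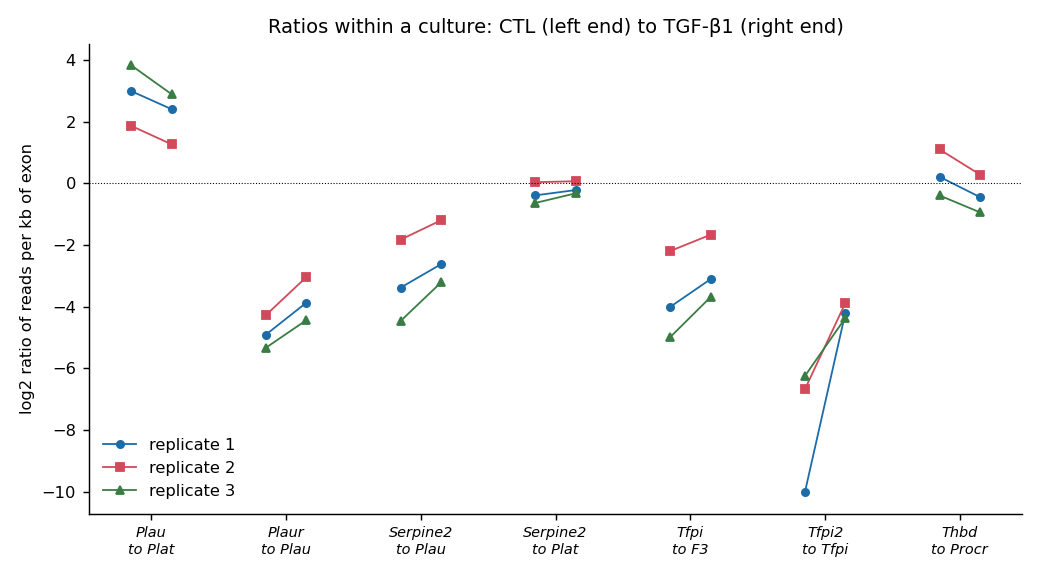
Log2 ratios of reads per kb of exon between pairs of the 9 genes within each culture, 0.5 reads added to each count; the left end of each line is the CTL culture and the right end the TGF-β1 culture of the same replicate number. Within each ratio all 3 lines run in the same direction, and only for Tfpi2 to Tfpi do the CTL and TGF-β1 values not overlap.

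The other genes of the pathway were taken from 3 lists. Of the 14 plasminogen genes described, 13 were in the files and 8 had enough reads to be tested. Without the block 0 passed in either direction (edgeR), 0 had an unadjusted p-value under 0.05, and DESeq2 passed 0. Lrp1 had 11293, 22427 and 7502 normalized counts in CTL and 19363, 33404 and 14226 after TGF-β1, so the groups overlap while each treated culture lies above its own control. With the block, Lrp1 (0.76, adjusted p = 0.000152, edgeR), the receptor that clears activator and inhibitor complexes, and Mrc2 (0.33, adjusted p = 0.0147, edgeR), a collagen receptor bound to the urokinase receptor, rose, and St14 (matriptase, -0.40, adjusted p = 0.000429, edgeR) fell. That is 2 of the 8 higher and 1 lower, where 15.1% and 19.1% of all tested genes passed with the block. Plg itself, the substrate of the activators, had 0 to 3 reads per library and was not tested, and Plgrkt, Anxa2, S100a10 and Eno1, which bind plasminogen on cells, passed neither fit.

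Of 21 further clotting genes, 14 were too low to be tested, and F7 and F10, the factors that F3 assembles with, had 0 reads in all 6 libraries. 2 of the 7 tested passed lower and 0 passed higher, where 6.69% and 5.00% of all tested genes did. Pros1, which encodes protein S, the cofactor of activated protein C, had 4783, 5500 and 3581 normalized counts in CTL and 2145, 2435 and 2007 after TGF-β1, with no overlap. It fell by 1.07 on the log2 scale (SE 0.17, adjusted p = 0.0158, edgeR). Serpina10, the protein Z-dependent inhibitor of factor Xa, had 622, 376 and 304 normalized counts in CTL and 82, 36 and 69 after TGF-β1, and fell by 2.80 (SE 0.39, adjusted p = 0.0124, edgeR), 6.94-fold. Its adjusted p-value was 0.0538 without TGF-β1 replicate 1, and that of Pros1 was 0.0774, 0.076 and 0.053 without CTL replicate 1, TGF-β1 replicate 1 and TGF-β1 replicate 3 (edgeR). Proz, which encodes protein Z, had the highest fold change of the list, 0.71 (adjusted p = 0.238, edgeR), on 6 to 17 reads. With the block, Ggcx, the vitamin K-dependent carboxylase that clotting factors need, also passed higher (0.25, adjusted p = 0.00901, edgeR).

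Of the 4 protease-activated receptors, through which thrombin and related proteases signal, 3 were tested. Without the block 1 passed higher and 0 lower, where 5.00% and 6.69% of all tested genes did. F2rl2 (PAR3) had 78, 88 and 72 normalized counts in CTL and 189, 336 and 195 after TGF-β1, and rose by a log2 fold change of 1.59 (SE 0.26, adjusted p = 0.0167, edgeR). Its adjusted p-value was 0.0885, 0.0509 and 0.0518 without CTL replicate 1, CTL replicate 3 and TGF-β1 replicate 1. F2r (PAR1), the main thrombin receptor, had far more normalized counts, 20307 ± 4163 in CTL and 17493 ± 4161 with treatment (SD over 3 cultures), with a log2 fold change of -0.22 (adjusted p = 0.558, edgeR); with the block it fell (-0.22, adjusted p = 0.00827, edgeR). F2rl1 (PAR2) had a log2 fold change of -0.13 (adjusted p = 0.437, edgeR) and passed neither fit.

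**Figure D5:**
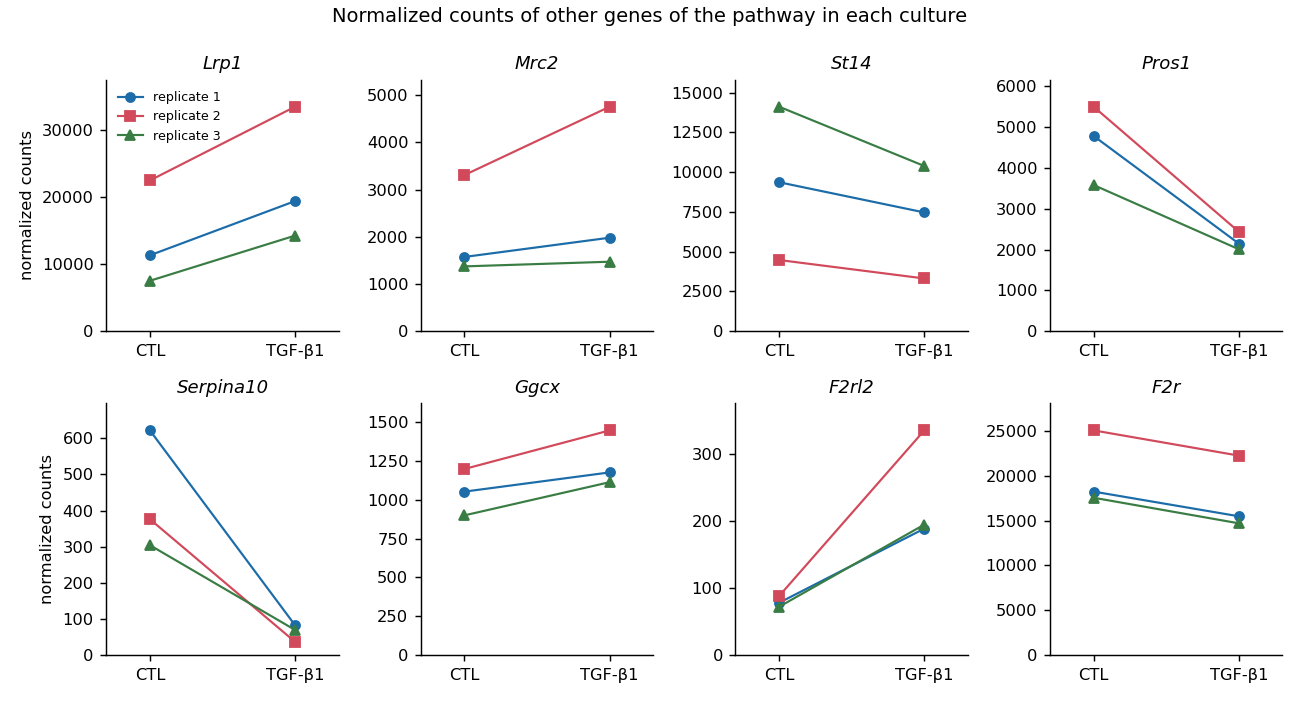
Normalized counts (vertical axes, each from 0) of 8 other genes of the pathway in CTL and TGF-β1 cultures, lines joining cultures of the same replicate number. F2rl2 rises and Pros1 and Serpina10 fall with no overlap between groups; Lrp1, Mrc2, Ggcx, St14 and F2r overlap between groups, with all 3 pairs of each moving the same way.

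Over the 6 libraries, the genes whose log2 CPM values were most like those of Plat were Klf15, Prkce and Zbtb25, each at a Pearson r of 0.995. They were picked as the closest of 15861 genes over 6 libraries that share a treatment, so the value is a description. Their log2 fold changes were -1.59, -0.20 and -0.22, beside -0.50 for Plat, so a like pattern across libraries went with changes of different size.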

How the data were processed

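RNA sequencing libraries of 3 CTL and 3 TGF-β1 cultures were analysed, grouped by the titles of the sample labels. The deposited values are read counts per gene, made by the authors by trimming single-end reads with Trim Galore, aligning them to GRCm38 with STAR 2.4.1d and counting them with HTSeq 0.6.1. The annotation release and strand setting are not given in the sources used here. Rows that name no gene were left out; of the reads in the files, 18.7 to 19.4% had no unique alignment, 4.16 to 4.93% lay on no gene and 1.88 to 1.97% were ambiguous. Symbols, positions and union exon lengths came from GENCODE M21, which matched 46005 of 46517 identifiers. Counts were tested in R 4.3.3 with edgeR 4.0.16 (filterByExpr, TMM, robust glmQLFit, then glmQLFTest); p-values of the 15862 genes tested were adjusted together by Benjamini-Hochberg and called under 0.05, and standard errors came from the F statistic. Reads on genes give a floor of 3 reads, at most 0.106 CPM, for counting error only. The replicate block is an alternative: same-numbered cultures correlated at 0.34, 0.684 and 0.572 in their deviations from the group mean, so the numbers of the labels were taken as pairs. Differently numbered cultures ran from -0.6174 to 0.2155, the highest being CTL replicate 1 with TGF-β1 replicate 3, so pair 1 is the least certain. The fits were repeated with a threshold of 0.01, with cultures left out, with scaling by RLE or by library size alone, with a minimum of 1 read as the filter, and in DESeq2 1.42.0. Count models were first tested on simulated data with no effect of replicate number, so that test does not cover such an effect. Ratios used reads per kb of exon plus 0.5 reads and exact permutation tests. Named were the 9 genes, the called genes and the lowest and highest fold changes of 3 pathway lists, and the 3 genes most like the called gene of smallest p. The genes and lists were chosen with earlier results of these data known. Klkb1, on the plasminogen list, was not analysed here, and 1 other gene of that list is not reported here. Gene symbols were matched exactly.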

Additional observations from a re-analysis of the deposited data

How the results depend on the processing

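With the replicate block, which pairs cultures by the numbers in their titles, 1 of the 9 genes passed higher and 5 lower, against 0 and 1 without it, and 2388 and 3037 of all tested genes did so, against 793 and 1061. Of the 9 genes, 1 passed higher with DESeq2, with a filter of only 1 read, and without both replicate 2 cultures, where 4 passed lower; with the block added to that last setting, chosen after seeing the data, 1 passed higher and 6 lower, where 14.3% and 17.0% of all genes did. With the filter of 1 read, 2.88% of all genes passed higher. In each of these settings the gene of the 9 that passed higher was Tfpi2. At a threshold of 0.01, 0 passed lower, beside 127 and 192 of all genes higher and lower. DESeq2 passed 1201 genes higher, and scaling by library size only 507. Without both replicate 1 cultures 0 of the 9 and 0 of all genes passed in either direction (edgeR), while 1938 genes had an unadjusted p under 0.05; without both replicate 3 cultures 0 of the 9 passed lower, and 95 and 190 of all genes passed. DESeq2 was not run without those cultures. Leaving out 1 culture, 0 to 1 of the 9 passed lower, and 109 to 516 and 186 to 807 of all genes passed higher and lower.

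Directions of genes with small differences turned. The log2 fold change of Plaur was 0.015 without both replicate 3 cultures, and ran from -0.36 without CTL replicate 2 to -0.0022 without CTL replicate 3. That of Tfpi was 0.0023 without both replicate 2 cultures, 0.011 with the block as well, and ran from -0.30 to 0.26 when 1 culture was left out. The same range was -0.020 to 0.28 for Procr, -0.28 to 0.89 for Mrc2 and -0.79 to 0.028 for St14. On read counts not divided by exon length, the mean log2 ratio of Serpine2 to Plat was 0.080 in CTL and 0.25 after TGF-β1, and that of Thbd to Procr was 0.51 after TGF-β1, turned by the lengths alone. Few reads limit the precision of Tfpi2 and Proz, and genes such as Plg had too few to be tested.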
